A study of Mus musculus with 30 samples.

Results

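Back skin of D6-deficient mice was compared directly with back skin of wild type (WT) mice on day 2 after the last application of TPA, a phorbol ester that irritates skin, with no subtraction of day 0 values. The comparison used 6 arrays of the 30 in the series, namely all arrays that the labels assign to day 2, 3 D6-deficient (D6 KO) and 3 WT. The mice were females of 8 to 12 weeks on a mixed 129–C57BL/6 background, and each of the 6 had its shaved back painted 3 times with 50 μM TPA, 24 h apart. The deletion of D6 was the only labelled difference, since the WT mice received the same TPA, and D6 was absent from every cell of the D6 KO mice rather than from a chosen cell type. Whole skin was ground, so each array holds RNA of epidermis, hair follicle, gland, dermis, subcutaneous fat, the thin muscle layer and any infiltrating leukocytes. The 3 arrays of a group came from separate mice. With 3 against 3, the smallest p of an exact permutation test is 0.1, so single genes were tested with limma, in a model fitted across all probe sets, and the number of arrays limits the precision.

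D6, also called Ackr2, is a scavenging receptor that binds inflammatory CC chemokines and takes them up without signalling for migration, and in skin it is best known from lymphatic endothelium. Chemokines draw leukocytes along gradients. CXC chemokines such as Cxcl1, Cxcl2, Cxcl3 and Cxcl5 attract neutrophils through Cxcr2. CC chemokines attract monocytes through receptors such as Ccr1 and Ccr2, and Cxcl9, Cxcl10 and Cxcl11 attract activated T cells through Cxcr3. Type I interferons act through the receptor of Ifnar1 and Ifnar2 on a complex with Stat2 and Irf9, which binds the interferon-stimulated response element (ISRE) of antiviral genes.

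On day 2, 148 of 36029 tested probe sets were called higher in D6-deficient skin (0.411%) and 58 were called lower (0.161%). Called probe sets are those with an adjusted p under 0.05 (limma, Benjamini-Hochberg) and a difference of more than 3-fold. "Past the test" below means the adjusted p alone, which 887 probe sets met with a higher and 717 with a lower value. All values are log2 intensities, so a difference of 1 is a doubling of the signal, and levels of different probe sets are not compared. The median difference of the probe sets called higher was 2.17 and of those called lower -2.11, and all 3 D6 KO arrays lay on 1 side of all 3 WT arrays in 147 of the 148 and 57 of the 58. Counted as genes, by the brightest probe set that carries 1 symbol, 542 of 17772 tested genes were past the test with a higher value (3.05%) and 465 with a lower one (2.62%). Of these genes 106 were called higher (0.596%) and 48 lower (0.27%), which is the background for every list that follows. The groups did not overlap in 1943 genes higher in D6 KO skin (10.9%) and 2348 lower (13.2%). The median difference over all tested genes was -0.02.

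**Figure D1:**
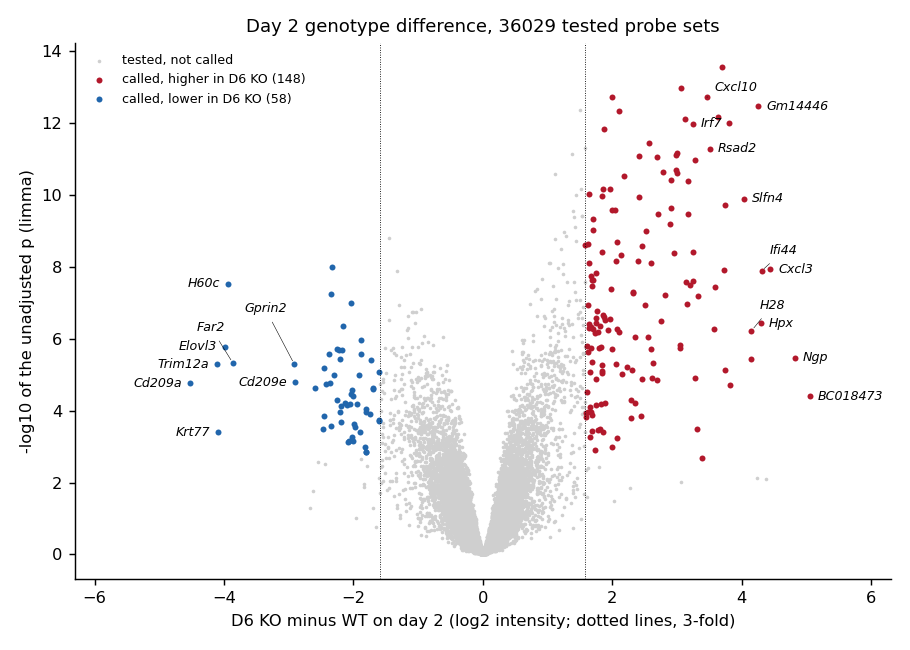
Each point is a tested probe set on day 2, with the difference between the mean log2 intensity of 3 D6 KO and 3 WT arrays on the x axis and -log10 of the unadjusted limma p on the y axis. The 148 probe sets called higher in D6 KO skin reach 5.05 and include interferon-induced genes at the smallest p values, and the 58 called lower reach -4.52.

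The 6 arrays were alike in overall signal. Their medians ran from 5.69 to 5.73, and over the tested probe sets pairs of arrays of the same genotype correlated at 0.988 to 0.993 and pairs of different genotypes at 0.979 to 0.986. The signal of the hybridization controls, spiked in by the laboratory, separated the arrays of the series into sets of 13 and 17. The first set held D6 KO replicates 1 and 2 and WT replicate 1, the other held D6 KO replicate 3 and WT replicates 2 and 3. Epidermal markers were bright on every array, as the label back skin requires, with Krt14 between 13.84 and 14.36.

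The D6 gene itself, listed as Ccbp2, has 3 probe sets on the array. On the dimmest the D6 KO arrays gave 3.40, 3.43 and 3.56 and the WT arrays 4.28, 4.16 and 5.32, a difference of -1.12 (SE 0.25, adjusted p = 0.0067). WT replicate 3 was the highest of the 6. Without it the difference was -0.755 with an adjusted p of 0.0706, and with only the 6 arrays of day 2 in the fit the adjusted p was 0.0564. On the next probe set the difference was -0.58 (adjusted p = 0.15) and on the brightest -0.07 (adjusted p = 0.94). Where these probe sets lie relative to the deleted part of the gene is not given in the sources used here.

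The largest block of differences was in genes that interferons induce. Of 54 tested interferon-induced effectors, 49 were past the test with a higher value in D6-deficient skin, 25 of them were called and none was past the test with a lower value. Oas1f, a relative of the oligoadenylate synthetases of the list but no member of it, was called lower, by -2.02 (adjusted p = 0.0021), and was picked after its values were seen. The median difference was 1.40, against -0.02 over all tested genes, and all 54 differences were above 0. In 51 of the 54 the groups did not overlap. Averaged over the list, the D6 KO arrays lay between 9.65 and 9.98 and the WT arrays between 7.96 and 8.15. Within the first hybridization control set the median difference was 1.49 and within the other 1.54.

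The Ifit proteins bind viral RNA and hold back its translation. Ifit1 was at 10.50, 10.22 and 10.96 on the D6 KO arrays and at 6.77, 6.46 and 7.25 on the WT arrays, a difference of 3.74 (SE 0.36, adjusted p = 1.9e-07). Ifit3 differed by 3.17 and Ifit2 by 3.07, and Gm14446, a gene of the same family now named Ifit1bl1, by 4.26 (SE 0.30, adjusted p = 2.4e-09). In each of these 4 genes the lowest D6 KO array was far above the highest WT array. These genes resemble each other in sequence, and signal of a relative on a probe set cannot be told apart.

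Ifi44 gave the largest difference of an effector, and its WT arrays did not agree among themselves. It was at 10.78, 10.10 and 10.65 on the D6 KO arrays and at 4.71, 6.92 and 6.97 on the WT arrays, a difference of 4.31 (SE 0.51, adjusted p = 6.0e-06). WT replicate 1 was the low array, and the same array was low in its neighbour H28, now named Ifi44l, at 3.19 against 7.12 and 7.28. H28 differed by 4.15 on both of its probe sets. Rsad2, or viperin, which makes a chain-terminating nucleotide, was at 11.45, 11.29 and 11.60 on the D6 KO arrays and at 8.04, 7.68 and 8.09 on the WT arrays, a difference of 3.51 (SE 0.28, adjusted p = 1.2e-08). Here the WT arrays lay close together.

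The oligoadenylate synthetase-like genes Oasl1 and Oasl2 differed by 3.01 and 2.98, and Mx1, an antiviral GTPase, by 3.00. Oasl1 was at 9.07, 8.38 and 8.75 on the D6 KO arrays and at 5.81, 5.61 and 5.76 on the WT arrays. These 3 genes and Isg15 were picked for description after their values were seen. Isg15, a ubiquitin-like protein, is measured only by a probe set that also lists Gm9706, which was at 10.53, 10.14 and 10.91 on the D6 KO arrays and at 6.76, 6.67 and 7.06 on the WT arrays, a difference of 3.70 (SE 0.23, adjusted p = 9.9e-10). The Schlafen gene Slfn4, known from myeloid cells, was at 12.17, 11.63 and 11.87 against 7.50, 8.92 and 7.14, a difference of 4.04 (SE 0.38, adjusted p = 1.3e-07). In Slfn4 WT replicate 2 was the highest WT array, whereas in Ifit1, Rsad2 and Oasl1 it was the lowest. D6 KO replicate 2 was the lowest D6 KO array in 45 of the 54 effectors, and in 5039 of all 17772 tested genes.

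The transcripts of the tested interferons were dim, with group means on day 2 below the lowest array median, 5.69. Ifnz was the brightest, at 5.55 in D6 KO and 5.59 in WT skin. Ifnb1 was at 4.12, 4.22 and 3.98 on the D6 KO arrays and at 3.92, 3.85 and 3.95 on the WT arrays, a difference of 0.20 (SE 0.16, adjusted p = 0.63). Of the 4 other type I interferon genes that were tested, Ifna2 differed by 0.08, Ifnz by -0.04, Ifna9 by -0.13 and Ifna1 by -0.19, and none was past the test. Another 4 genes of the list were left out as too dim, Ifng among them. These values do not show that the interferons were alike at the level of protein or in a small number of cells. The receptor chain Ifnar1 was past the test, at 9.51, 9.26 and 9.41 against 8.86, 9.04 and 9.02, a difference of 0.42 (adjusted p = 0.023). It lost this with any of D6 KO replicates 1 and 3 and WT replicates 1 and 3 left out, and then no gene of the list was past the test. Ifnar2 differed by 0.32 on its brightest probe set (adjusted p = 0.21), while its other 2 probe sets were past the test, at 0.51 and 0.66.

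Of 29 signalling genes and sensors of the interferon system, 16 were past the test with a higher value and 5 were called, with a median difference of 0.78. Irf7, the transcription factor that amplifies interferon production, was at 10.87, 10.04 and 11.03 on the D6 KO arrays and at 7.29, 7.44 and 7.47 on the WT arrays, a difference of 3.24 (SE 0.24, adjusted p = 3.5e-09). Usp18, which removes Isg15 and damps the receptor, differed by 2.90 (SE 0.28, adjusted p = 2.2e-07). Dhx58, a regulator of RNA sensing, differed by 2.04, the nucleic acid sensor Zbp1 by 1.69 and Ifi204, a sensor of DNA, by 1.56. Ddx58 (RIG-I) was past the test as well. With only the 6 arrays of day 2 in the fit Ifi204 was not (adjusted p = 0.0722). Stat2, a signal transducer of the receptor, differed by 1.65. None of the 29 genes was past the test with a lower value.

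The GTPases that interferon-gamma also induces, which attack the membranes around intracellular parasites, gave 9 of 11 past the test with a higher value and 3 called, with a median of 1.47. Irgm1 was at 9.71, 9.69 and 9.69 against 8.04, 7.67 and 8.51, a difference of 1.62 (SE 0.18, adjusted p = 1.5e-06). WT replicate 3 was the highest WT array in all 11 of these genes and replicate 2 the lowest in 10. Among the 54 effectors the same arrays were highest in 27 and lowest in 20, and among all 17772 tested genes in 6361 and 5104. Gbp1 rested on 1 dim WT array, at 3.86 against 7.30 and 8.18, and its difference of 3.39 (adjusted p = 0.048) was lost with any array but WT replicate 3 left out. Iigp1 differed by 1.67 (adjusted p = 0.0059) and lost this only without WT replicate 2 among the arrays left out. Gbp2 differed by 0.56 (adjusted p = 0.29). MHC class I presentation moved less: all 15 tested genes had differences above 0, the median was 0.38, and Tap1 alone, a peptide transporter, was past the test at 0.65 (adjusted p = 0.021), which was lost without D6 KO replicate 1 or 3 or WT replicate 1 or 2.

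The ISRE lies close to the start of many of these genes, so the promoter windows of RefSeq (GRCm38.p6, 250 bases before to 50 after each start) were searched for its core, GAAANNGAA, on both strands. Of the 54 effectors 44 had a window, and 23 of them held these letters (52.3%), against 9.76% of all 27025 genes with a window and 8.61% of the tested genes. Of the genes called higher 25 of 81 with a window held them (30.9%), and of those called lower 5 of 36 (13.9%). Among the effectors, the 23 with the letters had a median difference of 1.24 and the 21 without them 1.69, so within the list the letters did not go with a larger difference. The core of the gamma-activated site, TTCNNNGAA, was in 11.1% of the genes called higher and 9.55% of all genes. By list it was in 9 of the 44 effectors with a window (20.45%), 4 of 22 signalling genes and sensors (18.18%) and 3 of 8 GTPases (37.5%). No test was made of these shares, and a match is not a bound site. The stretches below surround the matches in effectors with large differences and in Cxcl10. They are written 5′ to 3′ on the strand of the gene, with the core in capitals on whichever strand it was read.
Ifi44, chr3:151749865-151749953, minus strand: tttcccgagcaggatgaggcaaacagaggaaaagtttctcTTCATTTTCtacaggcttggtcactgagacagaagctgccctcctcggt
Ifit1, chr19:34640740-34640853, plus strand: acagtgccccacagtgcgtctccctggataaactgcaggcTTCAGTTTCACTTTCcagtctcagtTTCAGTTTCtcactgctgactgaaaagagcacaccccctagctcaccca
Ifit3, chr19:34583334-34583475, plus strand: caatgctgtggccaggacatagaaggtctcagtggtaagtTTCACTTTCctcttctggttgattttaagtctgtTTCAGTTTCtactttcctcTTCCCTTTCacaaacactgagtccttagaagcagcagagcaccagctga
Rsad2, chr12:26456523-26456611, minus strand: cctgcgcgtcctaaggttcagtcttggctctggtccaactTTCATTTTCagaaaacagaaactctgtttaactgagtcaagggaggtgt
Cxcl10, chr5:92349054-92349139, minus strand: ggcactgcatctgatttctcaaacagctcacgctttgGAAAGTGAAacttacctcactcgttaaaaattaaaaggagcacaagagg
Ifit1 and Ifit3 hold the core 3 times each, beginning at positions -109 to -84 and -155 to -102 relative to the start, and Ifi44 holds it at position -3. Oasl1 and Oasl2, at 3.01 and 2.98, do not hold these letters in the window.

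**Figure D2:**
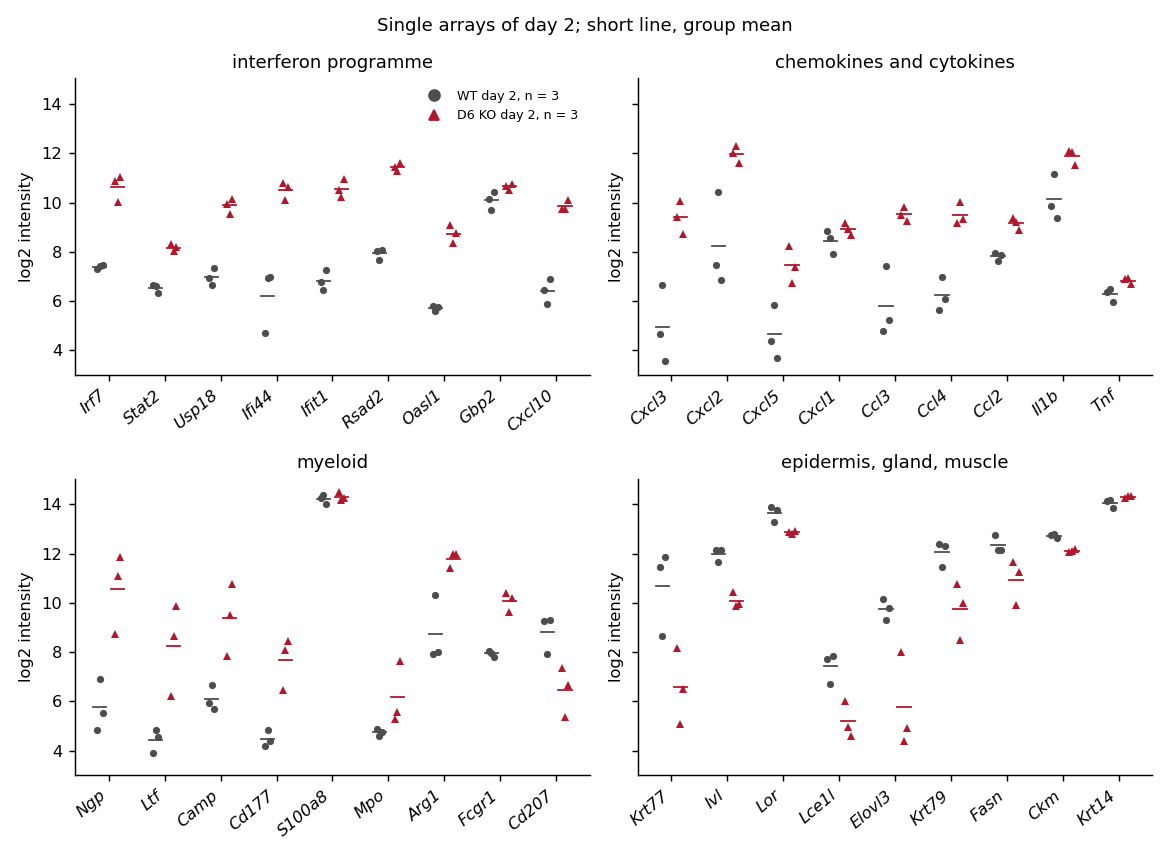
Log2 intensity (y axis) of single day 2 arrays for 9 genes in each of 4 panels, with grey circles for WT, red triangles for D6 KO and a short line for the mean of 3 arrays. Most genes of the interferon panel separate the genotypes with narrow groups, but the WT arrays of Ifi44 run from 4.71 to 6.97 and Gbp2 differs by only 0.56. In Cxcl2, Ccl3, Arg1 and Krt77 a single WT array lies toward the D6 KO arrays.

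Of the chemokines for neutrophils, 4 of 7 were past the test with a higher value and 3 were called. Cxcl3 was at 9.43, 10.06 and 8.72 on the D6 KO arrays and at 4.67, 6.67 and 3.55 on the WT arrays, a difference of 4.44 (SE 0.53, adjusted p = 5.6e-06). Cxcl2 was at 12.03, 12.32 and 11.61 against 7.45, 10.45 and 6.84, a difference of 3.74 (SE 0.66, adjusted p = 0.00084). Cxcl5 was at 8.25, 6.72 and 7.38 against 4.39, 5.84 and 3.70, a difference of 2.81 (SE 0.36, adjusted p = 2.1e-05). WT replicate 2 was the highest WT array in all 3 genes, and in none did it reach the lowest D6 KO array. Ppbp differed by 0.96 (adjusted p = 0.038), which was lost with any array but WT replicate 2 left out. Cxcl1, a close relative, was at 9.17, 8.93 and 8.70 against 8.86, 8.58 and 7.93, a difference of 0.48 (adjusted p = 0.44) with overlapping groups, although 1 of its other 2 probe sets was past the test at 1.01 (adjusted p = 0.041). The list's median difference was 0.96, at 1.16 within the first hybridization control set and 0.78 within the other, and 0.48 with the dimmer 50% of probe sets left out, a filter that removed members of the list.

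The windows of Cxcl3 and Cxcl2 hold the core of the NF-kappaB site, GGGANNTTC. This core was in 3 of the 6 neutrophil chemokine windows, in 10 of the 81 windows of genes called higher (12.3%) and in 4.47% of all genes. The third neutrophil chemokine with it was Cxcl1, which differed by 0.48 and was not past the test on its brightest probe set. Cxcl5, which was called, had no window. In Cxcl3 and Cxcl2 the core was found on either strand, in overlapping places beginning at positions -73 and -97, and the following stretches carry it in capitals.
Cxcl3, chr5:90785988-90786078, plus strand: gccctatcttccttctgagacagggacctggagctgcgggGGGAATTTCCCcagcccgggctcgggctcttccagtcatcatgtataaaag
Cxcl2, chr5:90903762-90903852, plus strand: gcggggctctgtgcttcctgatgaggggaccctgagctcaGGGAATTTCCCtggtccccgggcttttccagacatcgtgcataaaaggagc

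The CXCR3 chemokines Cxcl10 and Cxcl9, which interferons induce, were called higher. Cxcl10 was at 9.73, 9.75 and 10.12 on the D6 KO arrays and at 6.44, 5.88 and 6.89 on the WT arrays, a difference of 3.46 (SE 0.24, adjusted p = 1.7e-09). Cxcl9 differed by 2.30 (SE 0.40, adjusted p = 0.00083). Cxcl11 differed by 0.93 and missed the threshold (adjusted p = 0.10), although its groups did not overlap, and it was past the test without D6 KO replicate 1.

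Among the 13 inflammatory CC chemokines, the class that D6 binds, 5 were past the test with a higher and 1 with a lower value, and 2 were called. Ccl3 was at 9.52, 9.82 and 9.25 on the D6 KO arrays and at 4.79, 7.42 and 5.21 on the WT arrays, a difference of 3.72 (SE 0.44, adjusted p = 5.9e-06). Ccl4 was at 9.18, 10.03 and 9.32 against 5.65, 6.97 and 6.07, a difference of 3.28 (SE 0.27, adjusted p = 1.9e-08). Ccl5, Ccl2 and Ccl7 differed by 1.57, 1.34 and 1.26, all without overlap, and Ccl7 was not past the test without D6 KO replicate 1 or 2 or WT replicate 2. Ccl22, a chemokine for Ccr4, was lower, by -0.95 (adjusted p = 0.032), which was lost with any array but D6 KO replicate 1 left out. The median of the list was 0.35, at 0.63 within the first hybridization control set and 0.08 within the other. Ccl20, which draws cells with Ccr6 to epithelium, went the other way: it was at 7.17, 6.11 and 6.35 on the D6 KO arrays and at 9.50, 7.28 and 9.46 on the WT arrays, a difference of -2.20 (SE 0.37, adjusted p = 0.00051), which was not past the test with only the 6 arrays of day 2 in the fit (adjusted p = 0.0634). WT replicate 2 was again the WT array nearest to the D6 KO arrays. None of the 9 other homeostatic skin chemokines tested was past the test.

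Of 20 chemokine receptors tested, 5 were past the test with a higher value, among them Ccr1 (adjusted p = 0.0031), Ccrl2 at 1.26 and Cxcr4 at 0.89, with the neutrophil receptor Cxcr2 at 0.84. Cxcr4 and Cxcr2 lost this without WT replicate 3, which left 3, and Cxcr4 also without WT replicate 1 or D6 KO replicate 2 or 3. The scavenger Ccrl1, now named Ackr4, was lower by -1.27 (adjusted p = 0.036) on its brightest probe set, which was lost with any array but D6 KO replicate 1 left out, and differed by 0.07 and 0.03 on the others. Ccr2 differed by 0.19 (adjusted p = 0.76).

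In the interleukin-1 family, 5 of 20 genes were past the test with a higher and 1 with a lower value. Il1b was at 12.11, 12.05 and 11.52 on the D6 KO arrays and at 9.88, 11.17 and 9.39 on the WT arrays, a difference of 1.75 (SE 0.32, adjusted p = 0.0013). Il18bp, the soluble inhibitor of interleukin-18, differed by 1.70 (SE 0.17, adjusted p = 3.7e-07), and the alarmin Il33 by 1.44 (adjusted p = 0.0020). Il1a, made by keratinocytes, was lower, at 7.65, 6.67 and 7.01 against 9.01, 7.74 and 8.53, a difference of -1.32 (adjusted p = 0.0059) that was lost without D6 KO replicate 2 or WT replicate 1. The 5 higher genes fell to 3 without D6 KO replicate 1 or 2 or WT replicate 1 or 3. Of 23 other cytokines of inflamed skin 5 were past the test and none was called: Osm at 1.21, Il24 at 1.19, Tnfsf10 at 0.65, Tnf at 0.55 and Tgfb1 at 0.39. That count was 1 without D6 KO replicate 2, 2 without WT replicate 1, and 3 without D6 KO replicate 1 or WT replicate 2 or 3, and Osm alone was past the test in every such case, though not with only the 6 arrays of day 2 in the fit (adjusted p = 0.0863). Il6 differed by 1.14 without overlap but missed the threshold (adjusted p = 0.10). Il17a, at 6.35, 4.52 and 4.72 against 5.63, 5.72 and 4.94, differed by -0.23 (adjusted p = 0.87).

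Markers of neutrophils gave the highest median among the cell type lists. Of 22 tested, 13 were past the test with a higher value and 12 were called, none was past it with a lower value, and the median difference was 1.84. In bulk skin, more cells of a type and more RNA per cell cannot be told apart. Ngp, a granule protein of maturing neutrophils, was at 8.75, 11.09 and 11.87 on the D6 KO arrays and at 4.83, 6.91 and 5.52 on the WT arrays, a difference of 4.82 (SE 0.80, adjusted p = 0.00049). Ltf (lactoferrin) was at 6.23, 8.64 and 9.87 against 3.89, 4.84 and 4.55, a difference of 3.82 (SE 0.72, adjusted p = 0.0017). Camp, the cathelicidin precursor, differed by 3.28 (SE 0.60, adjusted p = 0.0012). In these 3 secondary granule genes D6 KO replicate 1 was the lowest of the D6 KO arrays and still above every WT array.

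Surface receptors of neutrophils were also higher. The formyl peptide receptor Fpr2 was at 11.09, 11.45 and 11.21 on the D6 KO arrays and at 7.91, 9.12 and 6.99 on the WT arrays, a difference of 3.24 (SE 0.40, adjusted p = 1.0e-05). The lectin receptor Clec4e differed by 3.33, Fpr1 by 3.16, Clec4d by 3.05, Cd177 by 3.20 and Csf3r, the receptor of granulocyte colony-stimulating factor, by 1.71. The collagenase Mmp8 differed by 3.14 and the gelatinase Mmp9 by 1.97. WT replicate 2 was the highest WT array in 20 of the 22 markers, and in 6581 of all 17772 tested genes. Averaged over the list, the WT arrays lay between 7.24 and 8.27 and the D6 KO arrays between 9.14 and 9.93. Several chemokines and receptors described above were also higher in D6 KO skin, and the part of the infiltrate in their differences was not tested. S100a8, near the top of the scale at 14.02 to 14.50 on every array, differed by 0.10 with overlapping groups. Of the primary granule genes, made early in the bone marrow, Mpo differed by 1.42 (adjusted p = 0.13) and Prtn3 by 1.29 (adjusted p = 0.096) without overlap, and Elane by 0.54 with overlap. These 4 genes and Clec4d, Csf3r and Mmp9 were picked after their values were seen.

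Of 21 markers of monocytes and macrophages 8 were past the test with a higher value and 3 were called, with a median of 0.52. Arg1, an enzyme of alternatively activated macrophages, was at 11.43, 11.98 and 11.99 on the D6 KO arrays and at 7.92, 10.32 and 8.00 on the WT arrays, a difference of 3.05 (SE 0.48, adjusted p = 0.00027). The Fc receptor Fcgr1 was at 10.42, 9.64 and 10.20 against 8.06, 7.98 and 7.80, a difference of 2.14 (SE 0.24, adjusted p = 2.6e-06). Cd14 differed by 1.62, Msr1 by 1.01 and Cd68 by 0.82, whereas Emr1 (F4/80) and Csf1r, found on nearly all macrophages, differed by 0.26 and 0.12 and were not past the test. Msr1 was not past the test without D6 KO replicate 1 or WT replicate 3, and Cd68 was not without D6 KO replicate 2 or 3 or WT replicate 1 or 3. The count of 8 fell to 5 without WT replicate 1 or 3. Pattern receptors followed, with 8 of 18 past the test and 4 called: Irg1, which makes itaconate, at 3.59 (SE 0.45, adjusted p = 1.4e-05), Tlr13 at 1.99, Tlr1 at 1.67 and Cd14.

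Langerhans and lymphoid cell markers gave few differences. Cd207 (langerin), found on Langerhans cells, was lower, at 7.34, 5.36 and 6.64 on the D6 KO arrays and at 9.26, 7.93 and 9.31 on the WT arrays, a difference of -2.38 (SE 0.39, adjusted p = 0.00041). It was the only 1 of 15 dendritic and Langerhans cell genes past the test, and H2-Aa, an MHC class II chain, differed by 0.05. Among 18 T and NK cell genes, Cd4 alone was past the test, at 0.47 (adjusted p = 0.030), which held with D6 KO replicate 1 left out and was lost with any of the other 5 arrays left out. Cd3e, Cd3d and Cd3g, which define T cells, differed by -0.24, 0.05 and -0.10. Of 4 B cell genes none was past the test. Mast cell proteases such as Cpa3 (0.08) and Mcpt4 (0.33) did not pass the test, while Hdc, the histamine-forming enzyme, which neutrophils also carry, differed by 1.41 (adjusted p = 0.0046).

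**Figure D3:**
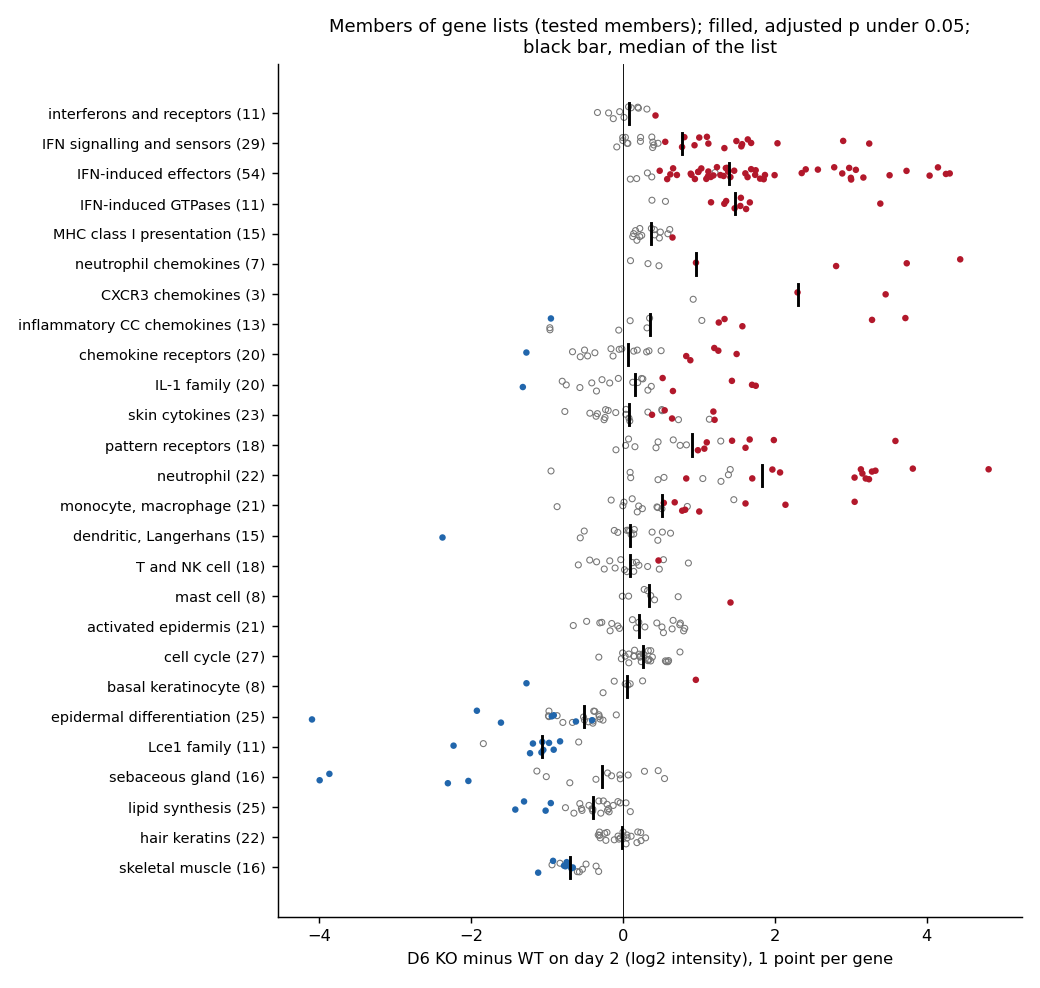
Difference between D6 KO and WT skin on day 2 (x axis, log2) for every tested gene of 26 lists (y axis, with the number of tested genes), filled where the adjusted p was under 0.05 (red higher, blue lower) and open otherwise, with a black bar at the median. Medians are highest in the CXCR3 chemokines (2.30) and neutrophil markers (1.84) and lowest in the Lce1 family (-1.06).

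Of 25 genes of keratinocyte differentiation, all had differences below 0, 7 were past the test and 3 were called, with a median of -0.52. Krt77, a keratin of the suprabasal epidermis and sweat duct, was at 8.16, 5.08 and 6.50 on the D6 KO arrays and at 11.46, 8.67 and 11.88 on the WT arrays, a difference of -4.09 (SE 1.00, adjusted p = 0.015). That call was lost without D6 KO replicate 2 or 3 or WT replicate 1 or 3. Ivl (involucrin), a precursor of the cornified envelope, was at 10.43, 9.88 and 9.94 against 12.17, 11.68 and 12.16, a difference of -1.92 (SE 0.35, adjusted p = 0.0011). The epidermal lipase Lipk differed by -1.60 (adjusted p = 0.0088), a call lost without D6 KO replicate 2. Lor (loricrin), Krt1 and Krt10 differed by -0.79, -0.52 and -0.37 with no overlap of the groups, but their spread over the series was large and none was past the test. The count of 7 fell to 2 without D6 KO replicate 2 and to 4 without D6 KO replicate 3.

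The Lce1 genes, late envelope proteins that lie side by side on chromosome 3, were lower as a group. All 11 tested had differences below 0 and no overlap, 9 were past the test, and the median was -1.06. Lce1l was the only 1 called, at 6.01, 4.97 and 4.59 on the D6 KO arrays and 7.71, 6.71 and 7.83 on the WT arrays, a difference of -2.23 (SE 0.36, adjusted p = 0.00035). Lce1c differed by -1.22 and Lce1b by -1.07, the latter not past the test without D6 KO replicate 2. WT replicate 2 was the lowest WT array and D6 KO replicate 1 the highest D6 KO array in all 11. Over all 17772 tested genes the counts were 5104 and 5289. Since the Lce1 genes are close copies, their probe sets do not count as 11 separate observations. The count of 9 fell to 3 without D6 KO replicate 2, to 5 without WT replicate 1 or 3 and to 6 without D6 KO replicate 3. The Lce3 genes, which rise in damaged epidermis, differed by -0.15 to 0.05 in the 4 tested, and none of 21 genes of activated epidermis was past the test. Krt6a differed by 0.52 and Krt16 by 0.29. None of 27 cell cycle genes was past the test, and their median was 0.27.

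Markers of the basal layer did not share the shift of the late genes. Krt5 and Krt14 differed by 0.10 and 0.26 and were not past the test. Krt15, a keratin of resting basal cells and the follicle bulge, was lower, at 9.19, 8.96 and 9.44 against 10.60, 10.26 and 10.52, a difference of -1.27 (adjusted p = 0.011) that was lost without D6 KO replicate 2 or WT replicate 1. Lama3, a laminin chain of the basement membrane, differed by 0.96 and was past the test, though not without D6 KO replicate 2 or 3 or WT replicate 1 or 3. These were the only ones past the test among 8 basal genes.

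In the sebaceous gland list 4 of 16 genes were called lower and none was past the test with a higher value, with a median of -0.28. Elovl3, which makes very long fatty acids, was at 7.99, 4.39 and 4.90 on the D6 KO arrays and at 10.15, 9.30 and 9.81 on the WT arrays, a difference of -3.99 (SE 0.64, adjusted p = 0.00030). Far2, which turns fatty acids into alcohols for wax, was at 7.14, 4.06 and 3.95 against 9.40, 8.27 and 9.06, a difference of -3.86 (SE 0.66, adjusted p = 0.00062). Krt79, a keratin of the gland's duct, differed by -2.30 and Elovl6 by -2.03. In Elovl3, Far2 and Krt79 D6 KO replicate 1 was the D6 KO array nearest to WT skin. Scd1, a desaturase shared with fat, differed by -0.20 (adjusted p = 0.80). Fatty acid and cholesterol synthesis gave 4 of 25 lower past the test, Fasn at -1.41, Acaca at -1.30, Me1 at -1.02 and Dhcr7 at -0.95, and none called. Fasn and Acaca were already lower on day 0, averaging 11.44 and 9.38 in D6 KO and 13.18 and 11.12 in WT skin. Me1 and Dhcr7 then averaged 11.73 and 9.17 in D6 KO and 12.16 and 9.10 in WT skin. Dhcr7 alone was past the test with each single array left out. The count was 1 without D6 KO replicate 2 or WT replicate 1, and the median of -0.39 was -0.68 within the first hybridization control set and -0.13 within the other.

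All 16 skeletal muscle genes had differences below 0, with a median of -0.69 and 14 without overlap, and 8 were past the test, Pvalb at -1.11 among them. With 1 array left out that count fell to between 0 and 2, whichever array it was. The muscle list was about as low on day 1, at a median of -0.68, and day 6, at -0.89. It was less low on day 4, at -0.33, and on day 0, at -0.11. Fat markers such as Adipoq (0.01) and Plin4 (-0.20) did not pass the test, and Retn (resistin) was lower by -1.53 (adjusted p = 0.0024). Retn was already lower on day 0, averaging 12.08 in D6 KO and 13.2 in WT skin. None of 22 hair keratins, 9 melanocyte genes or 3 stefin A genes was past the test. Of 27 regulators of the hair follicle, Wnt5a was past it with a higher value (0.94, lost with any array but D6 KO replicate 1 left out) and Bmp4 (-1.02) and Fgf18 (-1.03, lost with any array left out) with a lower one. Of 18 endothelial and adhesion genes 2 were past the test, Vcam1 among them at 1.16, and 5 were without D6 KO replicate 1. Collagens did not pass the test, with Col1a1 at 0.29, while Mmp13, a collagenase, and Plaur, the urokinase receptor, were called at 2.63 and 1.59. Ptgs2 (cyclooxygenase-2) was called at 2.35 (adjusted p = 0.0039) and Atf3 was past the test at 1.18, though not without D6 KO replicate 2 or WT replicate 1.

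Among the 12 largest increases and the 12 largest decreases of called genes without overlap were genes of no list above. BC018473, a long noncoding RNA, gave the largest increase, 5.05 (SE 1.01, adjusted p = 0.0028), at 10.04, 10.43 and 10.07 on the D6 KO arrays and 7.52, 4.14 and 3.74 on the WT arrays. It was also higher on days 0, 1, 4 and 6, by 3.25, 0.84, 3.48 and 1.62, none of them past the test. Hpx (hemopexin), which binds free heme, was at 11.29, 9.97 and 10.33 against 5.74, 8.45 and 4.50, a difference of 4.30 (SE 0.62, adjusted p = 9.1e-05). H60c, a ligand of the receptor NKG2D made in skin, was at 5.22, 4.54 and 4.59 against 8.85, 8.29 and 9.02, a difference of -3.94 (SE 0.49, adjusted p = 1.2e-05). Cd209a, a lectin of dermal dendritic cells and macrophages, gave the largest decrease, -4.52 (SE 0.85, adjusted p = 0.0016), at 4.13, 4.83 and 4.94 against 9.48, 9.44 and 8.53. Its neighbour Cd209e differed by -2.90. Both were lower still on day 4, by -5.77 (adjusted p = 0.00084) and -3.41 (adjusted p = 0.0019). On days 0, 1 and 6 Cd209a differed by -2.71, -2.77 and -2.22 and Cd209e by -1.15, -1.76 and -1.47, none of them past the test.

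Others among the decreases were Gprin2 at -2.91, Calcb at -2.59 and Fcgbp at -2.46, and their differences on the other days were not past the test. Trim12a, Trim34 and Galc were also low on other days. Trim12a differed by -4.11 on day 2 and by -3.74 on day 0, and Trim34 by -2.46 on day 2 and -2.52 on day 0, each past the test on both days. The other probe set of Trim12a differed by 0.18 on day 2 (adjusted p = 0.84). Both genes have close relatives, and signal of these cannot be told apart. Trim34 had another probe set with the opposite sign, at 1.62 (adjusted p = 3.7e-05). Galc differed by -2.47 on day 2 on 1 of its 2 probe sets and by -3.01 to -2.02 on the other days, where it was not past the test, and the other probe set gave 0.52 on day 2. Galc was not past the test without D6 KO replicate 2 or WT replicate 2, and Trim34 was not when its probe sets were averaged.

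The same direct comparison was made on the other days. Day 0 gave 19 probe sets called higher and 25 lower, day 1 gave 1 and 4, day 4 gave 12 and 16 and day 6 gave 1 and 5. The day 2 difference itself differed from that of day 4 in 303 probe sets (0.841%) and from that of day 1 in 159 (0.441%), by the interaction term of the fit. Of the 148 probe sets called higher on day 2, 85 differed from day 4, 80 from day 1 and 70 from both, and of the 58 called lower, 5, 2 and 2. These probe sets were chosen for their day 2 difference, which is part of each contrast, so the counts lean toward a larger difference on day 2 and are a description only. Leaving out single day 2 arrays took the 303 to between 134 and 351, with 134 without WT replicate 1, 170 without WT replicate 3, 180 without D6 KO replicate 2 and 188 without D6 KO replicate 3. It took the 159 to between 80 and 187, with 80 without WT replicate 1 or D6 KO replicate 3 and 86 without WT replicate 3.

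The effectors made up many of these. Of the 54, 29 had a larger difference on day 2 than on day 4 and 27 than on day 1, and none a smaller one. Their median difference was -0.18 on day 0, 0.32 on day 1, 1.40 on day 2, 0.29 on day 4 and 0.10 on day 6. Rsad2 in D6-deficient skin averaged 8.72 on day 0, 8.82 on day 1, 11.45 on day 2, 9.59 on day 4 and 7.82 on day 6, and in WT skin 8.74, 8.51, 7.94, 8.56 and 7.199. Neutrophil markers were larger on day 2 than on day 4 in 6 of 22 and than on day 1 in 7 of 22. In WT skin Cxcl3 averaged 4.96 on day 2 and 9.14 on day 4, and in D6-deficient skin 9.40 and 10.24. For the lower lists the day contrasts passed the test in few genes: Aloxe3, a lipoxygenase of the barrier, was the only 1 of 25 differentiation genes and Elovl6 the only 1 of 16 sebaceous genes with a lower day 2 than day 4 difference past the test. The median difference of the differentiation genes was 0.58 on day 0, -0.02 on day 1, -0.52 on day 2, -0.83 on day 4 and -0.12 on day 6, so it was not lowest on day 2. The genotype difference of Cd207 was lower on day 2 than both on day 4 (adjusted p = 0.0059) and on day 1 (adjusted p = 0.026). On day 4 Cd207 averaged 7.98 in D6 KO and 7.368 in WT skin, and on day 1 9.715 and 9.451.

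**Figure D4:**
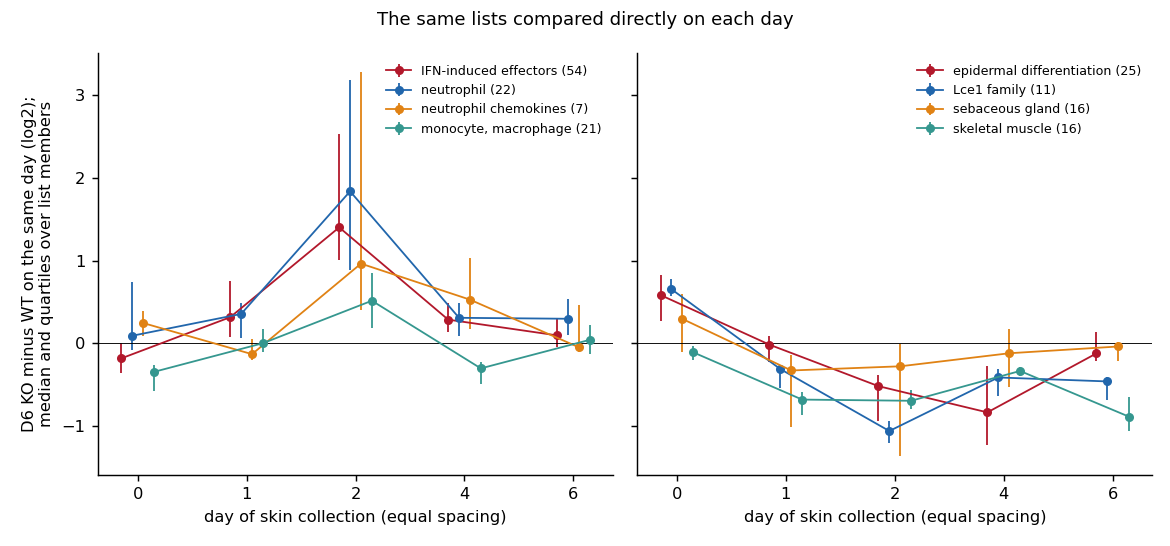
Median difference between D6 KO and WT skin compared on the same day (y axis, log2, bars from the lower to the upper quartile over the genes of a list) on days 0, 1, 2, 4 and 6 (x axis, equally spaced), for 4 lists higher on day 2 (left) and 4 lower (right). The effectors peak at 1.40 on day 2, with 0.32 on day 1 and 0.29 on day 4. Skeletal muscle genes lie near -0.69 on days 1 and 2, at -0.33 on day 4 and at -0.89 on day 6.

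The arrays of a group also differed from each other in a patterned way. WT replicate 2 was the highest WT array in 65 of the 106 genes called higher (61.3%) and the lowest in 35 of the 48 called lower (72.9%), against 6581 and 5104 of all 17772 tested genes. Among the effectors the same array was the highest in 19 of 54 and the lowest in 20. D6 KO replicate 1 was the highest D6 KO array in 41 of the 48 genes called lower, against 5289 of all 17772 tested genes. Over all tested probe sets, the SD within a group had a median of 0.153 in WT and 0.139 in D6 KO skin on day 2. Leaving out D6 KO replicate 1 raised the probe sets called lower from 58 to 100.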

How the data were processed

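RNA from back skin of 3 WT and 3 D6-deficient mice per time point was hybridized to Affymetrix 3' expression arrays of the whole mouse genome, 1 array per mouse. The authors normalised all 30 arrays with robust multiarray analysis (RMA) and deposited linear intensities for 45101 probe sets, which range from 2.26 to 14.98 after log2. RMA is quantile based, so a shift shared by all genes of an array cannot be seen. A further deposited table holds a sample sheet and was not used. Versions of the authors' software are not given in the sources used here, and acetone-treated mice are day 0.

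For the present comparison 64 control probe sets were removed, log2 was taken, and the dimmest 20% of probe sets by mean level were dropped (9008, below a mean of 3.72), which left 36029. The limma 3.58.1 model held 1 mean for each group of all 30 arrays (R 4.3.3, lmFit and eBayes), so the spread is shared by 10 groups of 3. The day 2 difference was tested, then its difference from that of day 4 and of day 1, and p-values were adjusted over all tested probe sets by the Benjamini-Hochberg method. Calling required an adjusted p under 0.05 and more than 3-fold. Genes were quoted by their brightest probe set with a single symbol, and the 24 top genes by their called probe set of largest change. Gene symbols are those of the deposited table, with newer names from RefSeq.

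The members and the 36 lists (693 genes) were chosen with earlier results of these data known. Named genes were the D6 gene, the 12 largest increases and 12 largest decreases among called genes without overlap, and of each list its first 3 members and at most 8 members with the largest difference past the test, with all interferon genes and receptors. Others are said to be picked after their values were seen. Simulated data held 200 changed probe sets of 36029 for the day 2 comparison. The test recovered 85% of those raised by 1 log2 unit, 82.5% of those lowered by 1 and 100% of those raised by 2, with 3.12% false calls among 192. The simulated noise was independent between probe sets and arrays, so these shares do not carry over to arrays that differ in a patterned way. Replicate numbers did not pair the mice: the deviations of same-numbered arrays from their group means correlated at 0.07, -0.06 and -0.18. The alternatives were other filters, centring, variance trend, control set as covariate, day 2 arrays alone, other fold thresholds, the methods' t-test, the replicate block and leaving out each array. Some genes are not reported here.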

Additional observations from a re-analysis of the deposited data

Results flagged for a closer look

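The difference between D6-deficient and WT skin on day 2 differed from that on another day, by the interaction term of limma, in 6 of the genes with the largest increases. For Cxcl3 the day 2 difference was larger than that of day 4 by 3.342 (adjusted p = 0.0272) and than that of day 1 by 4.328 (adjusted p = 0.00462). For Ccl3 these values were 2.718 (adjusted p = 0.035) and 3.743 (adjusted p = 0.00355). Both chemokines were low in WT skin on day 2 apart from WT replicate 2. For Gm14446 the values were 3.391 (adjusted p = 0.000109) and 3.465 (adjusted p = 0.000138), for Ifit1 2.76 (adjusted p = 0.00547) and 2.603 (adjusted p = 0.0141), and for Slfn4 3.259 (adjusted p = 0.00196) and 2.851 (adjusted p = 0.0107). H28 differed from day 4 alone, by 3.637 (adjusted p = 0.0465), on the probe set with the smaller spread. All 6 genes were chosen for their day 2 difference, which forms part of these contrasts.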

How the results depend on the processing

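The 206 probe sets called (148 higher, 58 lower) became 200 with only the 6 arrays of day 2 in the fit, 162 with the lower 50% left out and 209 with the control set as covariate. The threshold moved them most: 1604 (887 and 717) with no fold threshold, 569 (353 and 216) with more than 2-fold, and 26 (25 and 1) when limma tested against 3-fold itself. The methods' t-test gave 206 (146 and 60) at its unadjusted threshold and 0 (0 and 0) after Benjamini-Hochberg adjustment, with 5225 probe sets at an unadjusted p under 0.05 against 5590 in limma. With 1 array left out the total ran from 183 to 261, the higher from 138 to 167 and the lower from 43 (without D6 KO replicate 2) to 100 (without D6 KO replicate 1). The contrast of day 2 with day 4 (303 probe sets) ran from 134 to 351 and that with day 1 (159) from 80 to 187. The dimmest D6 probe set was at -1.124 with an adjusted p of 0.0564 on the day 2 arrays alone, and at -1.34 to -0.755 with 1 array left out. With the replicate number as a block the calls were 207 over all arrays and 213 over day 2, although the numbers did not pair the samples (1 of 3 arrays correlated best with its own number). Of 138 named genes past the test, 84 kept it under every alternative run and 54 lost it at least once, 50 of them with an array left out and 15 with only the day 2 arrays in the fit, and none reversed. These 15 were Ccl20, Cd4, Fasn, Gbp1, Ifi204, Ifnar1, Il18rap, Il1a, Lama3, Nlrp3, Osm, Sbsn, Tap1, Tgfb1 and Tnf. The cause was not tested. Dim probe sets are bounded by background, so their folds may be understated.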

Other observations

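The genes named here belong to no list and were picked after their values were seen. Of 89 called genes outside the lists, 47 were higher and 42 lower in D6-deficient skin. Among the higher ones, Reg1 (a C-type lectin of regenerating tissue) differed by 3.58, Spp1 (osteopontin) by 3.25, Olfm4 (a neutrophil granule protein) by 3.17, Ms4a4c by 2.99, the activating Fc receptor Fcgr4 by 2.91, Arg2 by 2.69 and Trem3 by 2.32, each past the test in limma. Among the lower ones, Fa2h, which hydroxylates fatty acids of the skin barrier, differed by -2.42, Slurp1, a secreted keratinocyte protein, by -2.26, Olah by -2.18 and Gsdma, a gasdermin of skin, by -1.73.

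Lectins of the Cd209 family did not move as 1 group. Cd209a and Cd209e were lower, by -4.52 and -2.90, and Cd209d by -1.80, whereas Cd209g was higher by 1.84. Mgl2, another lectin of dermal myeloid cells, was lower by -1.69. 3 genes were lower on every day, past the test each time. Of these, Lztfl1 differed by -2.33 and 2010315B03Rik by -2.34 on day 2, both without overlap. Both lie on chromosome 9, as the D6 gene does, and whether their differences come from the loss of D6 itself was not tested. Apod, on chromosome 16, is the other 1 of the 3. On day 2 it was at 4.10, 3.82 and 3.65 on the D6 KO arrays and at 7.43, 3.91 and 6.81 on the WT arrays. WT replicate 2 thus lay among the D6 KO arrays.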
